A study of Mus musculus with 6 samples.

Results

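Pyruvate dehydrogenase, its kinases and phosphatase, and the mitochondrial pyruvate carriers were followed in mouse liver with a knockout of the transcription factor Klf15. The genes were taken by symbol from a list of mitochondrial pyruvate entry and oxidation, and all 9 were found among the 48432 genes of the deposited table. They are the carriers Mpc1 and Mpc2, the complex subunits Pdha1, Pdhb and Dlat, the kinases Pdk1, Pdk2 and Pdk4, and the phosphatase Pdp2. None of the 9 was skipped in any library, and all 9 passed the filter on low counts.

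The study compared RNA sequencing profiles of liver from 10-week-old mice of 2 groups. The Li-KO group (3 libraries) had a knockout of Klf15 in the liver. KLF15 is a zinc finger protein of the Kruppel-like family that regulates transcription. The Ctl group (3 libraries) carried the Albumin-Cre transgene, in which the albumin promoter drives Cre recombinase in hepatocytes. The labels do not name the deleted exon, the Cre line of the Li-KO mice, the sex, the feeding state or the hour of harvest, and they do not say whether each library is from a mouse of its own. The p-values therefore measure the spread between these libraries, which may be partly technical.

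Pyruvate made in the cytosol enters the mitochondrion through a carrier built of MPC1 and MPC2. The pyruvate dehydrogenase complex then turns it into acetyl-CoA, with a decarboxylase of alpha and beta subunits (Pdha1 and Pdhb), a lipoyl-bearing acetyltransferase core (Dlat) and a dihydrolipoyl dehydrogenase (Dld). Kinases of the PDK family phosphorylate the alpha subunit and switch the complex off, and the phosphatases PDP1 and PDP2 switch it back on. In liver this switch is known to set how much pyruvate is burned and how much is left for gluconeogenesis through pyruvate carboxylase, and Pdk4 is known as a fasting-induced gene in liver and muscle.

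The promoters of the 3 genes whose transcripts rose (Mpc1, Dlat and Pdk4) and of Pdk1, which had the largest fitted difference below 0 among the 9, are shown because the deleted factor belongs to a family that binds GC-rich boxes. Each window runs from 250 bases before to 50 bases after the transcription start in RefSeq on GRCm38.p6, and for Mpc1 and Pdk1, which have more than 1 window, the one shown is the first listed. Capitals mark matches to the Kruppel-like GC box CCNCNCCC on either strand.
Mpc1 promoter, chr17:8283537-8283836, plus strand: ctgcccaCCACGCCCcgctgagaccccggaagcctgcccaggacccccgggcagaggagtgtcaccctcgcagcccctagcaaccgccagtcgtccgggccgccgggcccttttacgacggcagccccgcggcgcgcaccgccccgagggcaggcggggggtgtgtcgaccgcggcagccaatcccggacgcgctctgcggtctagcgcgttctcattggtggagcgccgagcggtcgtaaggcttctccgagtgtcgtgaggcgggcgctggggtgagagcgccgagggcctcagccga
Dlat promoter, chr9:50659731-50660030, minus strand: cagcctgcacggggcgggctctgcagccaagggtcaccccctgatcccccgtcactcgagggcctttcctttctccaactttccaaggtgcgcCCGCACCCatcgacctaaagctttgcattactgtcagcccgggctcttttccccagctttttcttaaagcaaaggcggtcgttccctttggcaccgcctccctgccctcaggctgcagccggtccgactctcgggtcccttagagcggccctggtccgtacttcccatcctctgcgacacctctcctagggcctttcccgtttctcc
Pdk4 promoter, chr6:5496229-5496528, minus strand: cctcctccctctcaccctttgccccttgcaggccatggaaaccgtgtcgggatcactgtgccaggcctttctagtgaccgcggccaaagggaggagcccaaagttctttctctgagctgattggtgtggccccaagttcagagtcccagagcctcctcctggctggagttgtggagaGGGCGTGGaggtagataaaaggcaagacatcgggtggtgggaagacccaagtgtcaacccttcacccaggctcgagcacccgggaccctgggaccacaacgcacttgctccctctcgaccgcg
Pdk1 promoter, chr2:71872974-71873273, plus strand: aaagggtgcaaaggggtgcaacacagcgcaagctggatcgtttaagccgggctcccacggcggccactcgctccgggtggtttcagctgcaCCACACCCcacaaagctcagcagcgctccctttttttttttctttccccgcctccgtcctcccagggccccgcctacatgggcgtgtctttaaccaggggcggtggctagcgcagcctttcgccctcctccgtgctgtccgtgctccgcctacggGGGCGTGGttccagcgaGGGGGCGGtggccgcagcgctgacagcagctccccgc

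All 9 genes matched the RefSeq promoter table, with 12 windows among them. A CCNCNCCC match lay in 10 of the 12 windows and in at least 1 window of each of the 9 genes, and 49.5% of all 32851 promoters hold one. That share is per window, so it does not apply to the count of genes, some of which have more than 1 window. The windows were 40.3% to 73.7% GC, and GC content was not taken into account. The shorter CACCC box, which can overlap the longer motif, lay in 8 of the 12 windows and 57.5% of all promoters. The forkhead element GTAAACA and the estrogen-related receptor element TCAAGGTCA, searched on both strands as well, were in 0 of the 12 windows, and 3.65% and 0.423% of all promoters hold them. A match is a run of letters, not a bound site.

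A coding stretch of Mpc1 is shown beside the same stretch of Mpc1-ps, a processed pseudogene on chromosome 12, because fragments of the 2 can hardly be told apart. Across the 330 bases of the Mpc1 coding sequence that the pseudogene covers they differ at 1 base, G41A, where the Mpc1 base comes first and positions count from the first base of the start codon. Capitals mark that base, and the stretches run from position 11 to position 71.
Mpc1: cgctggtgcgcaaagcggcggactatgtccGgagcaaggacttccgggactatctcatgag
Mpc1-ps: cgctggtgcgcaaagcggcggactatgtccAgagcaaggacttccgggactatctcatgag

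The libraries held 30716763 to 43375781 fragments. Klf15, the targeted gene, had 54.3, 41.6 and 51.8 CPM (counts relative to the TMM-scaled library total) in Li-KO replicates 0, 1 and 2, against 345, 174 and 196 CPM in Ctl replicates 0, 1 and 2, with an adjusted p of 0.00275. Its Li-KO mean was 0.206 of its Ctl mean, and the source of the remaining transcript was not tested. On the second principal component Li-KO replicate 0 (27) stood apart from Li-KO replicates 1 and 2 (-17.2 and -18.1), so results are given without it where it matters. Ctl replicate 0 did not stand apart there, but it differed from Ctl replicates 1 and 2 in some genes. Pck1 had 6436 CPM in it, against 1840.1 and 2963 CPM. Tat had 6477 against 1815 and 2643 CPM, and Got1 had 827 against 141 and 292 CPM. Ldha did not differ in this way (500.2 against 424 and 511 CPM). What lies behind this was not tested. Of the hepatocyte markers, Apoa1 and Ttr were among the abundant genes in all 6 libraries, Alb and Cps1 were skipped in all of them, Cyp2e1 was skipped in Ctl libraries, and Fah was lower in Li-KO liver (251 ± 40.6 CPM in Li-KO, 665 ± 66.2 CPM in Ctl). Of 7 adipocyte markers Lep was at 0 and the 2 measured did not pass, and 0 of 4 lymphocyte and neutrophil markers measured passed. The 12 muscle markers summed to 0.0641 to 0.431 CPM in Li-KO and 0.0707 to 0.282 CPM in Ctl libraries, with Ckm, Myh2, Myh4 and Mb at 0. Unlike the CPM of single genes, this and the other marker sums are relative to the library total without TMM scaling. No marker of Kupffer cells, sinusoidal endothelium or stellate cells (7 of each measured) passed the test, and Sox9 was the 1 cholangiocyte marker of 6 that did (2.82 ± 0.646 CPM in Li-KO, 14.7 ± 2.64 CPM in Ctl, log2 fold change -2.39). The other 5 cholangiocyte markers (Spp1, Epcam, Cftr, Krt19 and Krt7) had fitted values above 0, at 1.36, 0.96, 0.82, 0.77 and 0.17 on the log2 scale, and the median of the 6 was 0.79. The 7 erythroid markers summed to 296 to 611 CPM in Li-KO and 731 to 797 CPM in Ctl libraries, with 0 called. The 6 cholangiocyte markers summed to 156 CPM in Li-KO replicate 0, against 46.1 to 65.2 CPM in the other Li-KO libraries and 32.9 to 62.4 CPM in Ctl libraries. Of the stellate cell and fibroblast markers, Col3a1 was also highest in Li-KO replicate 0 (237 CPM). It had 91.8 and 46.7 CPM in Li-KO replicates 1 and 2 and 40.3 to 63.9 CPM in Ctl libraries. Col1a1 had 33.4 CPM in Li-KO replicate 0, against 6.46 to 9.57 CPM in the rest. Dcn was lowest there (143 CPM, against 148 to 217 CPM in the rest). The part of these cells in the results was not tested.

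Of the 9 genes, 3 rose in Li-KO liver (Mpc1, Dlat and Pdk4) and 0 fell by edgeR's quasi-likelihood test at an adjusted p under 0.05, while 6 did not pass. At an unadjusted p under 0.05, 5 of the 9 passed, Pdk1 and Pdhb with lower values among them, against 29.4% of all genes tested (14.6% higher and 14.8% lower). DESeq2 put 1 of the 9 (Pdk1) lower. Over all 16533 genes tested, 12.0% passed, 6.11% higher and 5.90% lower in Li-KO liver. The values of the groups did not overlap in 5 of the 9 genes (the 3 that rose, and Pdk1 and Pdhb, both lower in every Li-KO library), against 35.2% of all genes tested (17.4% with Li-KO higher and 17.8% with Li-KO lower). The median log2 fold change was 0.01 over the 9 genes and -0.01 over all genes tested. In bulk liver, fewer cells of a type and less RNA per cell cannot be told apart. With each library left out in turn, 1 to 3 of the 9 genes rose. Dlat alone passed when Ctl replicate 1 was left out, and all 3 passed when Li-KO replicate 0 was left out.

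**Figure D1:**
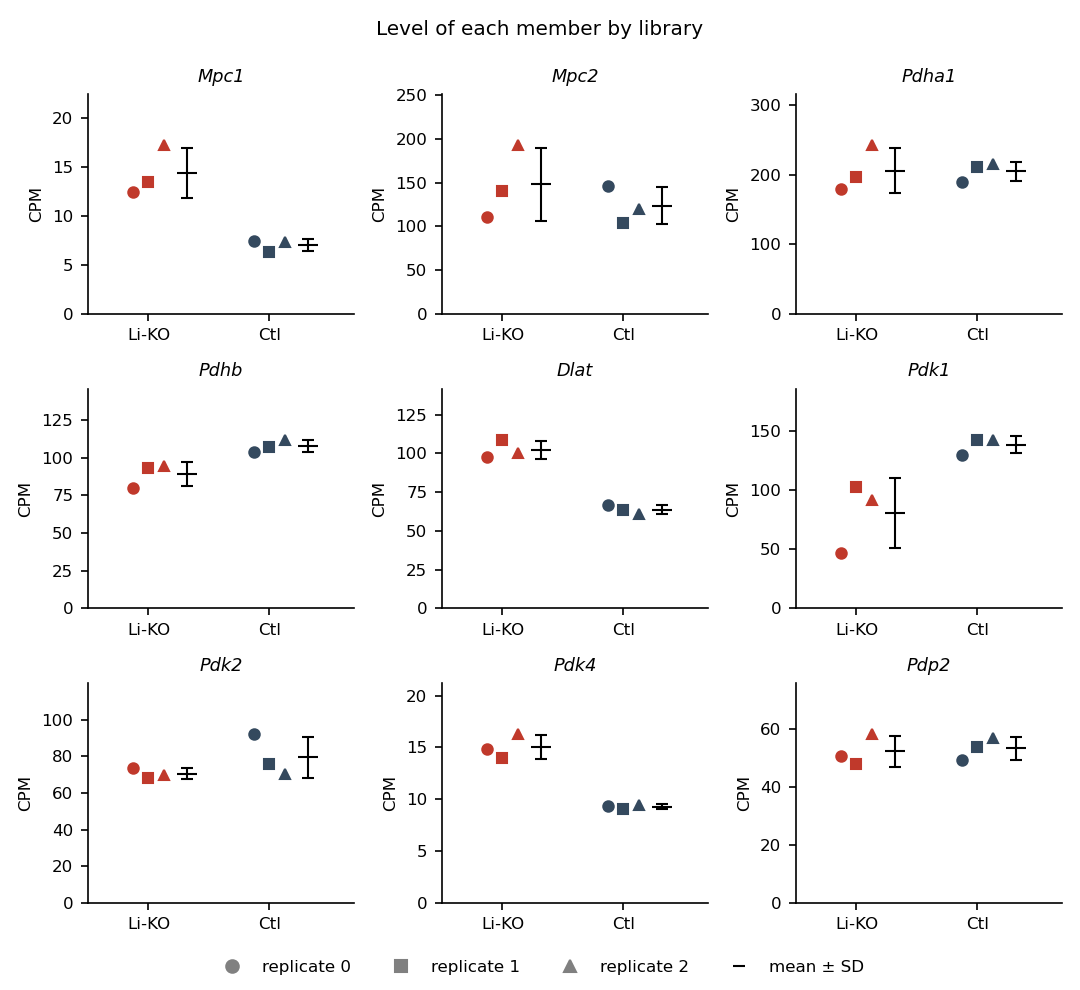
Level of each of the 9 genes in CPM (y axis, linear and starting at 0), with the 3 Li-KO libraries on the left (red) and the 3 Ctl libraries on the right (dark), marker shapes for replicates 0, 1 and 2 and bars for mean ± SD. Mpc1, Dlat and Pdk4 are higher in every Li-KO library than in every Ctl library, Pdk1 and Pdhb are lower, and the groups overlap for Mpc2, Pdha1, Pdk2 and Pdp2.

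Of the carriers, Mpc1 rose and Mpc2 did not pass. Mpc1 (ENSMUSG00000023861.17, chromosome 17, 8282904 to 8297661, plus strand, mm10), a subunit the carrier cannot do without, had 12.4, 13.4 and 17.2 CPM in Li-KO replicates 0, 1 and 2, against 7.40, 6.27 and 7.27 CPM in Ctl replicates 0, 1 and 2. Every Li-KO library lay above every Ctl library. Mpc1 averaged 14.3 ± 2.52 CPM in Li-KO and 6.98 ± 0.619 CPM in Ctl liver (SD, n = 3 each), 2.05-fold higher, with a log2 fold change of 1.04 ± 0.18 (SE) at an adjusted p of 0.0124. Mpc1 no longer passed without Ctl replicate 1 (adjusted p = 0.0587), and its adjusted p was 0.0146 without Li-KO replicate 0.

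Most fragments of this sequence were assigned to the pseudogene rather than to Mpc1. Mpc1-ps (ENSMUSG00000091498.4) had 1595, 2074 and 3091 estimated counts in the Li-KO libraries and 1431, 1029 and 1452 in the Ctl libraries, against 385, 418 and 707 for Mpc1 in Li-KO and 309, 233 and 274 for Mpc1 in Ctl libraries. Of the counts of Mpc1 and its near-identical copies, 80.6% to 84.1% stood on the copies, nearly all on Mpc1-ps. How the counting treated fragments that match both was not given in the sources used here. This makes the level of Mpc1 uncertain. An antisense transcript, 4930506C21Rik, shares 480 exonic bases with Mpc1 and averaged 3.0 counts per library. Mpc1-ps was itself higher in Li-KO liver, with a log2 fold change of 0.94 ± 0.18 at an adjusted p of 0.0161.

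The counts were therefore also summed over Mpc1 and its copies, a step added after seeing the data. The sum was 63.8, 80.0 and 92.3 CPM in the Li-KO libraries and 41.7, 34.0 and 45.8 CPM in the Ctl libraries. It was higher in every Li-KO library than in every Ctl library, 1.94-fold on average, with a log2 fold change of 0.96 ± 0.17 at an adjusted p of 0.0135. Direction and size were close for Mpc1 (2.05-fold), Mpc1-ps (1.92-fold) and the sum (1.94-fold). The copies held 80.6% to 84.1% of the summed counts, so the sum had to follow Mpc1-ps closely. Mpc1 and Mpc1-ps may also share out the same fragments. The closeness of these values therefore cannot show whether Mpc1 itself rose. The sum no longer passed when Ctl replicate 1 (adjusted p = 0.0570) or Li-KO replicate 1 (adjusted p = 0.0576) was left out.

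**Figure D2:**
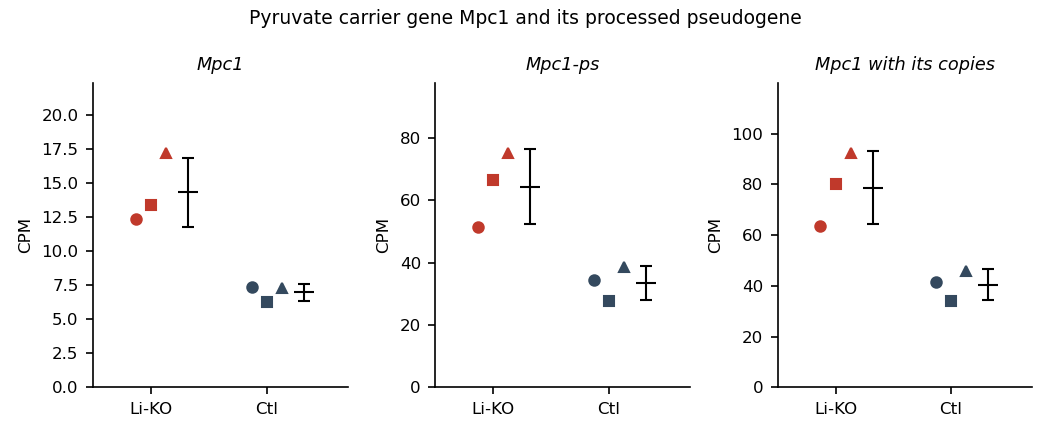
CPM of Mpc1 (left panel), of its processed pseudogene Mpc1-ps (middle) and of Mpc1 summed with its near-identical copies (right), with Li-KO libraries on the left of each panel, Ctl libraries on the right, shapes for replicates 0 (circle), 1 (square) and 2 (triangle) and bars for mean ± SD. In all 3 panels the Li-KO libraries lie above the Ctl libraries, and the sum is 63.8 to 92.3 CPM in Li-KO and 34.0 to 45.8 CPM in Ctl.

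Mpc2 (ENSMUSG00000026568.6, chromosome 1), the other carrier subunit, had 111, 140.3 and 193 CPM in the Li-KO libraries and 146, 104 and 120.4 CPM in the Ctl libraries. The groups overlapped, and the Li-KO libraries spread from 111 CPM in replicate 0 to 193 CPM in replicate 2. Its log2 fold change was 0.26 ± 0.21 with an adjusted p of 0.452, and the 95% interval of -0.22 to 0.75 leaves room for no difference and for a rise of the size seen in Dlat. Without Li-KO replicate 0 the value was 0.45 and without Li-KO replicate 2 it was 0.02.

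Within the complex, the acetyltransferase rose and the decarboxylase subunits did not pass. Dlat (ENSMUSG00000000168.9, chromosome 9, minus strand), the lipoyl-bearing core enzyme, had 97.8, 109 and 100.4 CPM in the Li-KO libraries, against 66.5, 63.8 and 60.8 CPM in the Ctl libraries. The spread within each group was small beside the gap between them. Dlat averaged 103 ± 6.11 CPM in Li-KO and 63.7 ± 2.85 CPM in Ctl liver (SD, n = 3 each), 1.61-fold higher, with a log2 fold change of 0.69 ± 0.11 at an adjusted p of 0.00873. It was the 1 gene of the 9 that passed whichever of the 6 libraries was left out, with adjusted p-values of 0.0132 to 0.0498.

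Pdha1 (ENSMUSG00000031299.10, chromosome X), the alpha subunit that the kinases phosphorylate, had 179, 197 and 243 CPM in the Li-KO libraries and 189.5, 211 and 215 CPM in the Ctl libraries. The groups overlapped almost fully, with a log2 fold change of 0.01 ± 0.14, a 95% interval of -0.32 to 0.33 and an adjusted p of 0.976. Pdha1 shares 603 exonic bases with Map3k15 on the opposite strand, and the sources used here do not give the strand setting of the counting. Map3k15 had 67 to 110 counts per library, against 5558 to 10005 for Pdha1.

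Pdhb (ENSMUSG00000021748.8, chromosome 14), the beta subunit, had 80.0, 92.8 and 94.5 CPM in the Li-KO libraries, against 104, 107 and 112 CPM in the Ctl libraries. All Li-KO values were below all Ctl values, but the gap was small and Pdhb did not pass, with a log2 fold change of -0.27 ± 0.11, a p of 0.0401 and an adjusted p of 0.150. The pseudogene Gm6123 on chromosome 1, which is 97.0% identical over 1079 bases, held 16.5% to 20.8% of the summed counts, and the sum of both had a log2 fold change of -0.25 at an adjusted p of 0.165. The 3 subunits thus stood in different proportions in the groups on the deposited FPKM scale (fragments relative to gene length and to depth). The ratio of Dlat to Pdha1 was 0.396, 0.408 and 0.301 in the Li-KO libraries and 0.261, 0.222 and 0.203 in the Ctl libraries. The ratio of Pdhb to Pdha1 was 0.937, 1.01 and 0.824 in the Li-KO libraries and 1.2, 1.13 and 1.12 in the Ctl libraries. Per exonic length (CPM divided by the exonic length of the gene in kb) the ratio of Pdhb to Pdha1 was lower, at 0.432, 0.457 and 0.376 in the Li-KO libraries and 0.532, 0.491 and 0.503 in the Ctl libraries, while that of Dlat to Pdha1 was 0.417, 0.425 and 0.315 in Li-KO and 0.268, 0.232 and 0.216 in Ctl libraries. On both scales neither ratio overlapped between the groups, and neither was tested.

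Of the kinases, Pdk4 rose, and Pdk1 and Pdk2 did not pass. Pdk4 (ENSMUSG00000019577.6, chromosome 6, minus strand), the isoform best known for its rise in fasting, had 14.9, 14.0 and 16.3 CPM in the Li-KO libraries, against 9.39, 9.02 and 9.42 CPM in the Ctl libraries. The 3 Ctl values lay within 1 CPM of each other, and every Li-KO value was above them. Pdk4 averaged 15.1 ± 1.19 CPM in Li-KO and 9.28 ± 0.226 CPM in Ctl liver (SD, n = 3 each), 1.63-fold higher, with a log2 fold change of 0.70 ± 0.14 at an adjusted p of 0.0203. The call ended without Ctl replicate 1 (adjusted p = 0.0846), Ctl replicate 2 (0.0660) or Li-KO replicate 1 (0.0597) and stood at 0.0363 without Li-KO replicate 0, while the log2 fold change stayed at 0.63 to 0.75.

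Pdk1 (ENSMUSG00000006494.11, chromosome 2, plus strand), a kinase isoform known as a target of HIF-1 in low oxygen, had 47.1, 103 and 91.5 CPM in the Li-KO libraries and 130.3, 143 and 143 CPM in the Ctl libraries. All 3 Li-KO values were below the Ctl values, and replicate 0 was the lowest by far. Pdk1 averaged 80.4 ± 29.4 CPM in Li-KO and 139 ± 7.49 CPM in Ctl liver (SD, n = 3 each). Its log2 fold change was -0.79 ± 0.25 with a 95% interval of -1.37 to -0.21, a p of 0.0129 and an adjusted p of 0.0765, so it did not pass. Without Li-KO replicate 0 the log2 fold change was -0.50 with an adjusted p of 0.0565. Pdk1 did pass with DESeq2 (adjusted p = 0.0187) and without a filter on low counts (adjusted p = 0.0334).

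Pdk2 (ENSMUSG00000038967.13, chromosome 11), the most widely expressed isoform, had 73.8, 67.9 and 69.6 CPM in the Li-KO libraries and 92.1, 75.8 and 70.5 CPM in the Ctl libraries. The groups overlapped, with Ctl replicate 0 well above the other 5 libraries. The log2 fold change was -0.17 ± 0.13 with a 95% interval of -0.47 to 0.12 and an adjusted p of 0.407.

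Pdk3, the kinase isoform that is not among the 9 genes, was counted with the other 3 to give the makeup of the kinase transcripts per length. The FPKM sum of the 4 kinases was 34.3, 41.0 and 41.4 in the Li-KO libraries, against 54.1, 49.3 and 48.1 in the Ctl libraries. Pdk4 made up 9.72%, 7.72% and 8.45% of this sum in the Li-KO libraries and 3.91%, 4.22% and 4.55% in the Ctl libraries. The sum was lower, and the share of Pdk4 higher, in every Li-KO library than in every Ctl library. Pdk1 made up 20%, 36.9% and 31.1% in the Li-KO libraries and 35.3%, 44.5% and 46.9% in the Ctl libraries, where Li-KO replicate 1 and Ctl replicate 0 overlapped. Pdk2 was the largest part in every library, 55.0% to 69.8% in Li-KO and 47.8% to 60.2% in Ctl, and Pdk3 stayed under 1% in each. So Pdk4, although it rose, remained the smallest of the 3 kinases among the 9 genes. The ratio of the kinase sum to Pdha1 was 0.730, 0.793 and 0.690 in the Li-KO libraries and 1.12, 0.892 and 0.844 in the Ctl libraries, again without overlap. Set against the phosphatase Pdp2, the kinase sum did overlap between the groups. That ratio was 3.22, 3.98 and 3.33 in the Li-KO libraries and 5.09, 4.26 and 3.92 in the Ctl libraries. The ratios of Pdk1 to Pdk2 and of Pdp2 to Pdp1 overlapped as well. These shares and ratios are descriptions and were not tested, and a transcript ratio does not measure the phosphorylation of the complex.

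**Figure D3:**
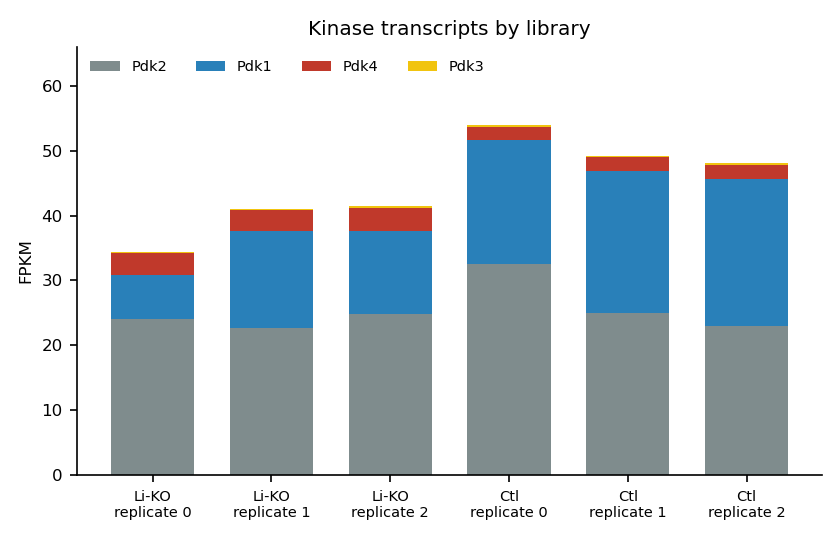
Stacked FPKM (y axis, starting at 0) of the 4 kinase transcripts in each library, with the 3 Li-KO libraries on the left and the 3 Ctl libraries on the right, and Pdk2 (grey), Pdk1 (blue), Pdk4 (red) and Pdk3 (yellow, barely visible) from bottom to top. The stacks reach 34.3 to 41.4 in Li-KO and 48.1 to 54.1 in Ctl, and the Pdk1 block is smallest in Li-KO replicate 0.

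Pdp2 (ENSMUSG00000048371.7, chromosome 8), a phosphatase that reactivates the complex, had 50.4, 47.9 and 58.1 CPM in the Li-KO libraries and 49.0, 53.6 and 56.9 CPM in the Ctl libraries. The groups overlapped, with a log2 fold change of -0.03 ± 0.12, a 95% interval of -0.31 to 0.26 and an adjusted p of 0.913. The other phosphatase, Pdp1, averaged 3.0 ± 0.389 CPM in Li-KO and 2.68 ± 0.414 CPM in Ctl liver (adjusted p = 0.717).

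**Figure D4:**
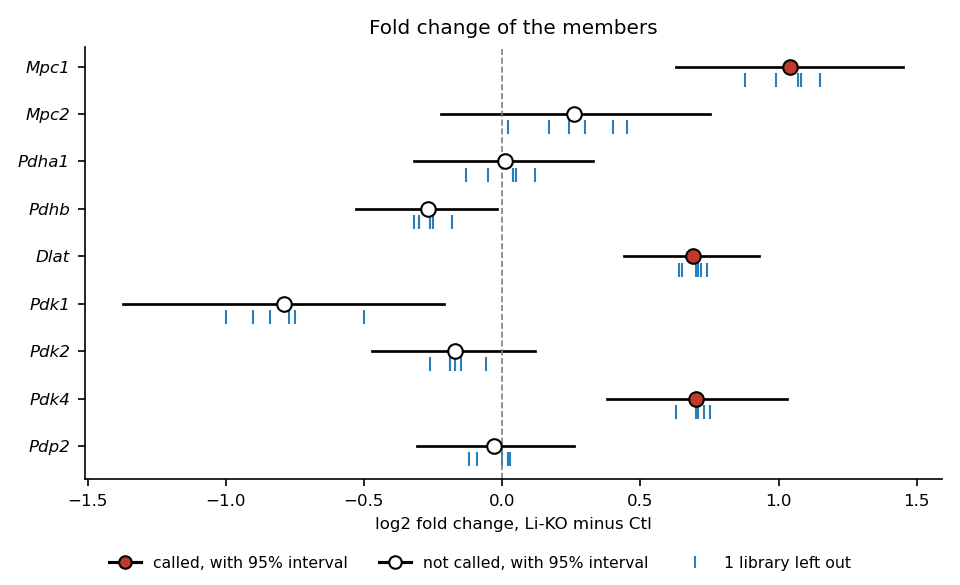
Log2 fold change, Li-KO minus Ctl, of the 9 genes (x axis), with filled circles for the 3 that passed the test, open circles for the 6 that did not, lines for 95% intervals and blue ticks for the values with 1 library left out. The ticks of Mpc1 (0.88 to 1.15), Dlat (0.64 to 0.74) and Pdk4 (0.63 to 0.75) stay close to the full value, and those of Pdk1 spread from -1.0 to -0.50.

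The order of the genes differed between the groups and also with the length used. On the deposited scale, the FPKM means in Li-KO liver ran from Mpc2 (135 ± 37.0) through Pdha1 (52.9 ± 6.59), Pdhb (48.6 ± 4.23), Pdk2 (23.8 ± 1.12), Dlat (19.3 ± 1.62), Mpc1 (14.2 ± 1.5), Pdk1 (11.6 ± 4.27) and Pdp2 (11.1 ± 1.15) to Pdk4 (3.33 ± 0.166). In that order Pdha1 and Pdhb, Mpc1 and Pdk1, and Pdk1 and Pdp2 overlapped in their library values. In Ctl liver the order was Mpc2 (117 ± 19.3), Pdhb (61.4 ± 3.09), Pdha1 (53.5 ± 4.52), Pdk2 (26.9 ± 5.03), Pdk1 (21.2 ± 1.85), Dlat (12.1 ± 0.539), Pdp2 (11.5 ± 0.828), Mpc1 (6.78 ± 0.632) and Pdk4 (2.13 ± 0.0550), and there only Dlat and Pdp2 overlapped among neighbours. Per exonic length Mpc2 was not first: it averaged 20.2 ± 5.71 CPM per kb in Li-KO and 16.8 ± 2.87 in Ctl liver, below Pdha1 (55.2 ± 8.87 in Li-KO, 54.9 ± 3.65 in Ctl) and Pdhb (23.1 ± 2.07 in Li-KO, 27.9 ± 1.0 in Ctl). Pdhb thus ranked below Pdha1 in both groups on that scale, and their change of places between the groups is seen on the FPKM scale alone. Dlat ranked above Pdk1 in Li-KO liver and below it in Ctl liver on both scales, with 21 ± 1.25 CPM per kb for Dlat and 10.3 ± 3.77 for Pdk1 in Li-KO, and 13 ± 0.583 for Dlat and 17.9 ± 0.963 for Pdk1 in Ctl liver. The place of Mpc1 in both orders rests on its uncertain level.

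The partners of the complex and the genes of its lipoyl cofactor mostly did not pass. Of 13 such genes measured, 2 rose and 0 fell, against 6.11% and 5.90% of all genes tested. The median log2 fold change was 0.22, against -0.01 over all genes tested. Glrx5, a mitochondrial glutaredoxin of iron-sulfur cluster assembly, rose to 83.2 ± 9.54 CPM in Li-KO liver, against 49.4 ± 3.38 CPM in Ctl liver (log2 fold change 0.75 ± 0.13, adjusted p = 0.0111). Sirt3, a mitochondrial deacetylase, rose to 93.5 ± 8.53 CPM in Li-KO liver, against 61.4 ± 5.18 CPM in Ctl liver (log2 fold change 0.61 ± 0.12, adjusted p = 0.0188). Both calls ended without Ctl replicate 1 or Li-KO replicate 1, and that of Sirt3 also without Ctl replicate 2. The count of 2 was 0 to 3 with 1 library left out.

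Dld, the shared dihydrolipoyl dehydrogenase, averaged 172 ± 41.5 CPM in Li-KO and 164 ± 19.0 CPM in Ctl liver (log2 fold change 0.06, adjusted p = 0.854). Pdhx, which ties Dld to the core, averaged 52.6 ± 7.53 CPM in Li-KO and 45.1 ± 5.78 CPM in Ctl liver (adjusted p = 0.362). Pdpr, the regulatory subunit of the phosphatase, averaged 61.2 ± 5.68 CPM in Li-KO and 64.2 ± 4.31 CPM in Ctl liver (adjusted p = 0.739). Among the enzymes that make and attach lipoate, the log2 fold change was 0.78 for Lipt2 (adjusted p = 0.0751), 0.27 for Lias (0.193) and -0.18 for Lipt1 (0.702). Among the iron-sulfur cluster factors Iba57, Bola3 and Nfu1 it was 0.35 (adjusted p = 0.180), 0.27 (0.271) and 0.06 (0.854), and for Pdk3 it was -0.53 (0.479).

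Of 15 measured genes that make, use or move pyruvate outside the carrier, 3 fell and 0 rose, against 5.90% and 6.11% of all genes tested. The median log2 fold change was 0.01. Pklr, the liver pyruvate kinase, fell to 73.4 ± 24.1 CPM in Li-KO liver, against 349 ± 93.6 CPM in Ctl liver (log2 fold change -2.25 ± 0.28, adjusted p = 0.00361). Me1, the cytosolic malic enzyme that makes pyruvate from malate, fell to 26.6 ± 13.2 CPM in Li-KO liver, against 132 ± 44.0 CPM in Ctl liver (log2 fold change -2.32 ± 0.36, adjusted p = 0.00831). Gpt, which makes pyruvate from alanine, fell to 209 ± 12.7 CPM in Li-KO liver, against 361 ± 55.6 CPM in Ctl liver (log2 fold change -0.79 ± 0.14, adjusted p = 0.0142), and its call ended without Li-KO replicate 1 (adjusted p = 0.0646).

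For the competing route, carboxylation and the return to phosphoenolpyruvate, the median log2 fold change was 0.36. Of its 10 genes, 3 rose and 1 fell, against 6.11% and 5.90% of all genes tested. With 1 library left out, 1 (without Ctl replicate 1, Ctl replicate 2 or Li-KO replicate 1) to 4 (without Ctl replicate 0) of them rose. Pcx, pyruvate carboxylase, fell to 481 ± 40.3 CPM in Li-KO liver, against 687 ± 42.3 CPM in Ctl liver (log2 fold change -0.51 ± 0.13, adjusted p = 0.0398), and its call ended in each fit without 1 library except that without Li-KO replicate 2, and in the 3 limma fits on log2 FPKM (adjusted p = 0.0549 to 0.0751). The carriers Slc25a10, for dicarboxylates, and Slc25a11, for 2-oxoglutarate and malate, and the mitochondrial malate dehydrogenase Mdh2 were the genes that rose. Slc25a10 averaged 346 ± 32.4 CPM in Li-KO and 182 ± 17.7 CPM in Ctl liver (log2 fold change 0.92 ± 0.13, adjusted p = 0.00652). The log2 fold changes of Mdh2 and Slc25a11 were 0.55 and 0.49 (adjusted p = 0.0353 and 0.0386), and both calls ended without Ctl replicate 1, Ctl replicate 2 or Li-KO replicate 1, as well as without Li-KO replicate 2 for Mdh2 and Li-KO replicate 0 for Slc25a11. Neither passed in the 3 fits on FPKM (adjusted p = 0.0853 to 0.117 for Mdh2 and 0.0773 to 0.0958 for Slc25a11), and Mdh2 did not pass with the replicate number as a block (0.0511).

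Downstream of the complex, 7 of 16 genes of the tricarboxylic acid cycle rose and 0 fell, against 6.11% and 5.90% of all genes tested. The median log2 fold change was 0.40. Fh1, fumarate hydratase, rose to 639 ± 75.8 CPM in Li-KO liver, against 277 ± 70.0 CPM in Ctl liver (log2 fold change 1.2 ± 0.20, adjusted p = 0.0100), and passed in all 6 fits without a library. Sdhc and Sdhd, the membrane anchors of succinate dehydrogenase, rose with log2 fold changes of 0.82 ± 0.14 and 0.84 ± 0.16 (adjusted p = 0.0124 and 0.0161), and both calls ended without Ctl replicate 2 or Li-KO replicate 1, that of Sdhd also without Ctl replicate 1. In the fits on FPKM Sdhd did not pass in any of the 3 (adjusted p = 0.0512 to 0.0779), and Sdhc did not pass in 1 (0.0534, all genes above 0). Sdhb, a subunit of the same enzyme, averaged 152 ± 15.2 CPM in Li-KO and 196 ± 22.9 CPM in Ctl liver. It was lower in every Li-KO library than in every Ctl library but did not pass (log2 fold change -0.37 ± 0.14, adjusted p = 0.109). Sdha did not pass either (log2 fold change 0.22, adjusted p = 0.317). The count of 7 was 1 without Li-KO replicate 1 and 2 without Ctl replicate 1 or without Ctl replicate 2, and it was 5 without Li-KO replicate 0. Near-identical copies of genes outside the 9 were not searched for.

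The sister complexes share Dld and a lipoyl-bearing design with pyruvate dehydrogenase. Their genes that fell were those of branched-chain and 2-oxoadipate breakdown, not of 2-oxoglutarate dehydrogenase. Of 9 genes measured, 4 fell and 1 rose, against 5.90% and 6.11% of all genes tested. The median log2 fold change was -0.06. Dhtkd1, the decarboxylase of 2-oxoadipate in lysine breakdown, fell to 14.1 ± 4.52 CPM in Li-KO liver, against 126 ± 28.9 CPM in Ctl liver (log2 fold change -3.16 ± 0.27, adjusted p = 0.000965). The branched-chain subunits Bckdhb (-1.31 ± 0.14, adjusted p = 0.00173) and Dbt (-1.68 ± 0.18, adjusted p = 0.00213) and the branched-chain phosphatase Ppm1k (-1.13 ± 0.15, adjusted p = 0.00539) fell on the log2 scale. All 4 passed whichever of the 6 libraries was left out. Bckdha, another branched-chain subunit, did not fall. It averaged 248 ± 34.6 CPM in Li-KO and 203 ± 25.7 CPM in Ctl liver (log2 fold change 0.29, adjusted p = 0.237). The branched-chain kinase Bckdk did not pass either (log2 fold change 0.06, adjusted p = 0.881). Nor did Ogdh, a subunit of 2-oxoglutarate dehydrogenase (log2 fold change -0.06, adjusted p = 0.798). Dbt is the branched-chain counterpart of Dlat, and so Dlat was higher and Dbt lower in every Li-KO library than in every Ctl library. The 1 that rose, named after its value was seen, was Dlst, the same kind of subunit in 2-oxoglutarate dehydrogenase (0.50 ± 0.12, adjusted p = 0.0325), and of the 6 fits without a library it passed in that without Li-KO replicate 2.

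Of 15 known transcriptional regulators of the kinase genes, 1 rose and 1 fell, against 6.11% and 5.90% of all genes tested. The median log2 fold change was -0.21. Esrra, the estrogen-related receptor alpha, rose to 78.1 ± 10.2 CPM in Li-KO liver, against 39.0 ± 2.16 CPM in Ctl liver (log2 fold change 1.0 ± 0.13, adjusted p = 0.00446), and passed in all 6 fits without a library. Ppargc1b, a coactivator of that receptor, fell to 7.99 ± 1.18 CPM in Li-KO liver, against 16.0 ± 3.38 CPM in Ctl liver (log2 fold change -1.0 ± 0.21, adjusted p = 0.0210), with the call lost without Ctl replicate 0, Ctl replicate 1 or Li-KO replicate 1 and in the 3 fits on FPKM (adjusted p = 0.0711 to 0.132). The related gene Ppargc1a had a fitted value in the other direction and did not pass. It averaged 60.4 ± 28.5 CPM in Li-KO and 25.1 ± 11.6 CPM in Ctl liver, and the groups overlapped. Its log2 fold change was 1.27 ± 0.39 (adjusted p = 0.0678). The count of genes that fell was 3 without Li-KO replicate 2 and 0 without Ctl replicate 0, Ctl replicate 1 or Li-KO replicate 1.

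Genes that share PPAR alpha and fasting control with Pdk4 did not move as 1 group. Of 15 measured, 2 rose and 2 fell, against 6.11% and 5.90% of all genes tested. The median log2 fold change was 0.23. With 1 library left out, 1 to 3 rose, and the count of genes that fell was 5 without Li-KO replicate 2 and 0 without Ctl replicate 1, Ctl replicate 2 or Li-KO replicate 1. Plin2, a lipid droplet coat protein, and Cpt1a, the gatekeeper of mitochondrial fatty acid entry, rose, with log2 fold changes of 1.26 ± 0.18 and 0.76 ± 0.16 (adjusted p = 0.00643 and 0.0239). Cyp4a10, a fatty acid omega-hydroxylase, was among those that fell, with a log2 fold change of -5.30 ± 1.18 (adjusted p = 0.0276). It had 0.0645, 1.48 and 14.0 CPM in the Li-KO libraries, against 109, 205 and 314 CPM in the Ctl libraries, and its log2 fold change was -8.08 without Li-KO replicate 2 and -4.72 without Li-KO replicate 0. The calls of Cpt1a and Cyp4a10 ended without Ctl replicate 1, Ctl replicate 2 or Li-KO replicate 1, and that of Cpt1a also on log2(FPKM + 1) of all genes above 0 (adjusted p = 0.0627).

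**Figure D5:**
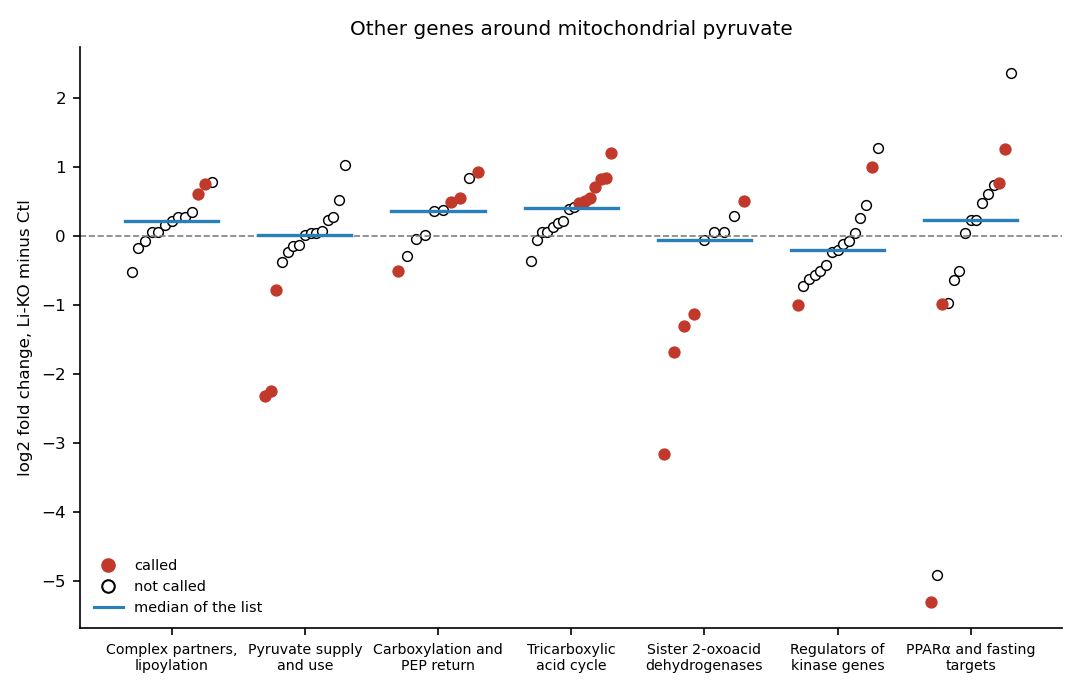
Log2 fold change, Li-KO minus Ctl (y axis), of every measured gene in 7 lists around mitochondrial pyruvate, each list sorted from low to high, with red points for genes that passed the test, open points for the rest and a blue line for the median of the list. The tricarboxylic acid cycle list has 7 red points above 0 and 0 below, and the sister dehydrogenases have 4 red points below 0 and 1 above.

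The genes whose pattern over the 6 libraries was most like that of each gene that rose were found among 8770 genes by the root mean square difference of centred log2 CPM. For Mpc1 they were Dhrs7 (0.114), Mpc1-ps (0.118) and Gm5560 (0.122), so that the pseudogene ranked second. For Dlat they were Dact2 (0.048), Mfsd3 (0.053) and Dffa (0.054), and for Pdk4 they were Slc35e2 (0.040), Amdhd1 (0.045) and Mif (0.050). All of these rose in Li-KO liver, as a pattern close to that of a gene that rose must, and the likeness rests on 6 libraries only.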

How the data were processed

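RNA from liver was sequenced after a stranded total RNA kit, per the labels' protocols. Per the submitters' processing notes, the authors used STAR, Cufflinks and Cuffdiff on mm10, with versions, options, annotation and strandedness not given in the sources used here. Per the file headers, the deposited table gives an estimated count of raw fragments and an FPKM value per gene and library, and 3.29% of the counts were not whole numbers. Counts were rounded. The 77 genes that Cuffdiff skipped in some library and listed at 0 were left out. Of the gene IDs, 48051 matched a symbol and 381 did not. Positions are from GENCODE release M21 (mm10).

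Genes were filtered with filterByExpr (minimum count 10, minimum total 15), which left 16533, scaled by TMM and compared over all 6 libraries with the quasi-likelihood test (two-sided) in edgeR 4.0.16 under R 4.3.3, with no term besides the group. Benjamini-Hochberg adjustment ran over all tested genes, and a gene with an adjusted p under 0.05 is said to have risen or fallen. Alternatives were DESeq2 1.42.0, limma 3.58.1 on counts (voom) and on log2(FPKM + 1) or log2(FPKM + 0.1), no filter, skipped genes kept at 0, a replicate block, and each library left out. The fitting code was tested on simulated data. Near-identical copies were found by BLAST against GENCODE transcripts (at least 90% identity over 200 bases). Figures were drawn with matplotlib 3.10.9. The genes named by rule were Klf15, the 9 genes and up to 4 called genes of each list with the smallest p. The rule also took every measured gene of the list of complex partners, marker genes at 0 or called, and the 3 nearest genes in pattern. Other genes were named outside this rule with their values known. Among them were Pck1, Tat, Got1, Ldha, Col3a1, Col1a1, Dcn and the cholangiocyte markers besides Sox9. Sdha, Sdhb, Bckdha, Bckdk, Ogdh, Dlst and Ppargc1a were named in the same way. Some genes that the rule names are not reported here. The 9 genes, the lists and the naming rule were chosen with earlier results of these data known. Precision is limited by 3 libraries per group of 30716763 to 43375781 fragments.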

Additional observations from a re-analysis of the deposited data

How the results depend on the processing

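The 3 genes that rose kept their direction in every other setting run for them (22 for Mpc1, 15 each for Dlat and Pdk4). These 3, Klf15 and the called genes named by rule from the lists around mitochondrial pyruvate made 27 genes. Of the 27, 12 kept their call in all 6 fits that left out a library. Called markers and the nearest genes in pattern were not counted here. Over all genes, DESeq2 put 1603 higher and 1555 lower in Li-KO liver, against 577 and 595 by limma on log2(FPKM + 1), 631 and 644 on log2(FPKM + 0.1), and 393 and 415 on log2(FPKM + 1) of all genes above 0, where Pdk4 did not pass (adjusted p = 0.0817) and 2 of the 9 genes were higher. Without 1 library the counts were 198 to 1102 higher and 234 to 1447 lower, and 1 to 3 of the 9 genes were higher and 0 lower, the same range as with counts summed over copies. Pdk1 was lower without the filter on low counts and with DESeq2 (1 of the 9 genes in each).

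Pdha1 and Pdp2, whose fold changes lie at 0, changed sign. Without 1 library Pdha1 ranged over -0.13 to 0.12 (the same with summed copies) and Pdp2 over -0.12 to 0.03. Pdha1 was at -0.004 with limma-voom, -0.02 in the 3 fits on FPKM, -0.001 with the replicate block and -0.05 without Ctl replicate 0. Pdp2 was at 0.02 without Ctl replicate 2 or Li-KO replicate 0 and at 0.03 without Li-KO replicate 1.

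The labels number the libraries 0, 1 and 2 in both groups and do not say what the numbers share. Deviations of same-numbered libraries from their group means correlated at 0.02, 0.08 and 0.07, so the numbers were not taken as a pairing. With the replicate block 956 genes were higher and 1015 lower, and 3 of the 9 genes were higher and 1 lower (Pdk1, adjusted p = 0.0376). Not every library correlated best with its own number.

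With exonic length in place of the deposited FPKM, the Pdk4 share of the kinase sum was 11.6% in Li-KO and 5.76% in Ctl libraries, and the Pdk1 share (27.4% in Li-KO, 39.0% in Ctl) no longer overlapped between the groups. The protein identity of the kinases was not run. The lowest count of any of the 9 genes in a library was 233 (Mpc1).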
